A study of Mus musculus with 6 samples.

Results

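The E2F transcription factors E2f1 to E2f8 were followed in progenitor cells of mouse bone marrow, divided by the GFP of a reporter at the Hes1 locus. They were taken as every probe set that the platform annotation assigns to exactly 1 gene with one of these 8 symbols. This gave 16 probe sets for 8 genes, out of 45037 probe sets and 18193 genes tested. E2f1 and E2f5 had 3 probe sets each, E2f2, E2f3, E2f6 and E2f8 had 2, and E2f4 and E2f7 had 1.

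The cells were lineage-negative, cKit+ and Sca1- marrow cells, the phenotype of myeloerythroid progenitors, from male mice aged 6 weeks. Mice of both groups had the genotype Hes1 GFP/WT, so the GFP-negative cells carry the reporter allele too and are told from the GFP-positive cells by the sort. Each of the 2 groups had 3 Affymetrix arrays. The labels do not say whether arrays came from separate or pooled animals, so the p-values reflect spread among 3 arrays a group that could be purely technical.

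E2F proteins bind a short GC-rich site in promoters of genes needed for DNA replication and cell division. E2f1, E2f2 and E2f3 activate transcription once cyclin-dependent kinases release them from the retinoblastoma protein Rb1, while E2f4 and E2f5 mostly repress with the related proteins Rbl1 and Rbl2. E2f6 represses with Polycomb proteins and binds no retinoblastoma protein, and E2f7 and E2f8 are atypical repressors that bind DNA without a DP partner. In blood formation, mice that lack E2f4 have anemia, and E2f2 acts in the cell cycle exit of maturing red cell precursors.

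The promoters of E2f2, E2f3 and E2f7 are shown because E2f2 was called higher here, and because E2f3 and E2f7 were the members with an E2F word before a start. The words searched were TTTCCCGC, TTTGGCGC, TTTCGCGC and TTTGCCGC on both strands, in the 250 bases before each start of the RefSeq promoter table (GRCm38.p6). Words on opposite strands can overlap. Capitals mark a match as read on the strand of the gene.
E2f2 (chr4:136172024-136172273, plus strand): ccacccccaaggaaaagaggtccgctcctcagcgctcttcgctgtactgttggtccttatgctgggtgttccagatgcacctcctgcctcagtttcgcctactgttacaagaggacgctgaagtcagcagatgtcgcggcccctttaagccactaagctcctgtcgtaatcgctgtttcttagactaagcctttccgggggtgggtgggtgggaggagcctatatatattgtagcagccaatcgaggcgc
E2f3 (chr13:29986065-29986313, minus strand): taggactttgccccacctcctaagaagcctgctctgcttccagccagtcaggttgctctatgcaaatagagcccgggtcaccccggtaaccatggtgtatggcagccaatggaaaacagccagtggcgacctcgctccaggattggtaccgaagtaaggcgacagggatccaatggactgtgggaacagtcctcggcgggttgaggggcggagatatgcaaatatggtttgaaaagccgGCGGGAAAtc
E2f7 (chr10:110745189-110745438, plus strand): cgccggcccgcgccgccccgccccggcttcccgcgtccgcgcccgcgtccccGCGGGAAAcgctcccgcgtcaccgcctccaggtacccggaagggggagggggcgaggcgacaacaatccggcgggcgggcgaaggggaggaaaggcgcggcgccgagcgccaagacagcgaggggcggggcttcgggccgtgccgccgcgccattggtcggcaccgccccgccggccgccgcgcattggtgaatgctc
Counted from the start of the transcript in the table, the match began 11 bases before it in E2f3 and 198 bases before it in E2f7. For E2f3, 249 bases are printed, since the RefSeq gene reaches 1 base further upstream than that transcript. Of the 6 members in the table, E2f3 and E2f7 held a match, against 2.16% of all 27025 genes. The table's windows for E2f1, E2f2, E2f6 and E2f8 hold none of these words, and E2f4 and E2f5 were not matched. The windows of E2f1 and E2f8 lie wholly inside the RefSeq gene, and that of E2f6 partly. For E2f1 and E2f8 the bases before the outermost start were therefore not searched.

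E2f4 and E2f2 were higher in GFP-positive cells. E2f4 rose 1.75-fold and E2f2 1.37-fold, and both probe sets of E2f2 were called. No member was called lower, although E2f7, E2f1, E2f5 and E2f3 had lower means by their representatives. Thus 50% of the members lay above 0, where 64.6% of all genes did. So 2 of 8 members were called higher and 0 lower (limma, adjusted p under 0.05), where 18.1% of all genes were called, 8.15% higher and 9.92% lower. At an unadjusted p under 0.05 the counts were 3 higher and 1 lower, where 22% of all genes were higher and 15.1% lower. The median log2 change of the 8 members was 0.08, next to 0.11 over all genes. Among their 16 probe sets, 3 were called higher and 0 lower, where 14% of all probe sets were called, 6.35% higher and 7.66% lower. A lower signal in sorted bulk cells can come from fewer cells of a type or from less RNA per cell, and these cannot be told apart.

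The reporter gene itself was 2.40-fold higher in the GFP-positive arrays (log2 5.88 ± 0.14 against 7.15 ± 0.04, SD, n = 3 each; limma adjusted p = 0.00141), which checks the labels and is no separate result. Array medians were 64.9, 63.7 and 64.4 intensity units in GFP-negative arrays and 62.1, 60.8 and 59.9 in GFP-positive arrays. All GFP-positive medians thus lay below the GFP-negative ones. Having 6 arrays sets the precision. GFP-negative array 3 and GFP-positive array 1 carried more immunoglobulin signal, with means of 4.90 and 5.07 on the log2 scale over 35 probe sets against 4.53 to 4.62 in the other arrays. Results are therefore also given without both arrays. The brightest of these probe sets read 10.11, 9.79 and 11.15 in GFP-negative arrays and 10.83, 7.69 and 7.87 in GFP-positive arrays. By that measure the GFP-negative arrays that are kept still carry more than the GFP-positive ones. With array medians subtracted, 61.5% of all called probe sets were higher in place of 45.3%.

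**Figure D1:**
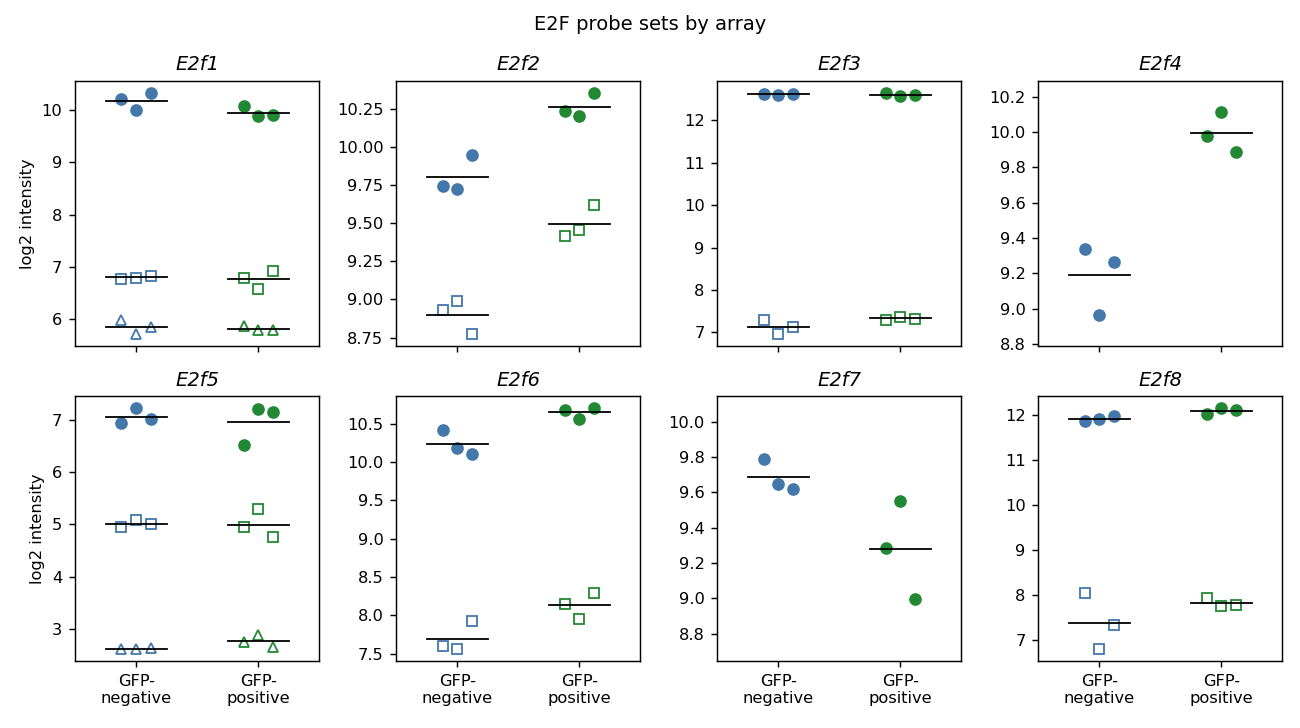
Log2 intensity (vertical axis) of each E2F probe set on the 3 GFP-negative (blue) and 3 GFP-positive (green) arrays, 1 panel per gene with its own axis range. Filled circles are the representative probe set (the one of highest mean), open symbols the other probe sets, and lines the group means. GFP-positive arrays lie wholly higher in both E2f2 probe sets, E2f4, both E2f6 probe sets and 1 probe set each of E2f5 and E2f8. They lie wholly lower in E2f7. Over all probe sets 38.5% are separated. E2f4 lies at 8.96 to 9.34 against 9.89 to 10.11.

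Among the activators, E2f1, the member best known for driving entry into S phase, had log2 intensities of 10.21, 10.004 and 10.33 in the GFP-negative arrays and 10.08, 9.89 and 9.90 in the GFP-positive arrays. The groups overlapped, since 1 GFP-positive array lay above the lowest GFP-negative array. E2f1 changed by -0.22 on the log2 scale (95% interval -0.51 to 0.07; adjusted p = 0.257). The other 2 probe sets of E2f1 changed by -0.04 each, with intervals reaching from -0.31 to 0.24, so no difference was detectable with 3 arrays a group.

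E2f2, an activator with a part in red cell maturation, had representative values of 9.74, 9.72 and 9.95 in GFP-negative and 10.23, 10.20 and 10.35 in GFP-positive arrays. Every GFP-positive array lay above every GFP-negative array. Its log2 change was 0.46 ± 0.10 (SE, n = 3 each; adjusted p = 0.0357, 95% interval 0.21 to 0.71). The second probe set read 8.93, 8.99 and 8.77 against 9.41, 9.45 and 9.62. Its groups were apart as well, with a log2 change of 0.60 ± 0.11 (SE; adjusted p = 0.0161). Leaving out any single array ended the call of the representative (adjusted p from 0.0517 to 0.116), while, among such removals, the second probe set lost its call only without GFP-negative array 3 or GFP-positive array 3 (adjusted p = 0.0531 to 0.0607). Without both arrays with immunoglobulin signal the changes were 0.54 and 0.58, with adjusted p = 0.0954 and 0.0907.

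E2f3, the third activator, was represented by a bright probe set that read 12.62, 12.59 and 12.63 in GFP-negative arrays and 12.65, 12.57 and 12.59 in GFP-positive arrays. The values of the groups lay among each other. The log2 change was -0.01, and its 95% interval of -0.21 to 0.19 leaves room for differences of either sign within it (adjusted p = 0.924). The sign turned to a change of 0.06 with array medians subtracted. The second, dimmer probe set changed by 0.20 (interval -0.07 to 0.47; adjusted p = 0.269).

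E2f4, a repressor that accompanies the pocket proteins in resting and differentiating cells, showed the largest change of the 8 members. Its probe set read 9.34, 8.96 and 9.26 in GFP-negative arrays and 9.98, 10.11 and 9.89 in GFP-positive arrays. The groups did not overlap, and the lowest GFP-positive array lay well above the highest GFP-negative array. E2f4 rose by 0.80 on the log2 scale ± 0.13 (SE, n = 3 each; adjusted p = 0.0117, 95% interval 0.49 to 1.12). The call was kept without each of the 6 arrays in turn (adjusted p from 0.0219 to 0.0438). Without both arrays with immunoglobulin signal the change was 0.85 and the adjusted p 0.0905, with 2 arrays left in each group. A test against a fold of 1.5 did not call E2f4 (adjusted p = 0.866).

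E2f5, the other pocket protein partner, was measured by 3 probe sets, and the brightest read 6.94, 7.21 and 7.01 against 6.52, 7.21 and 7.14. GFP-positive array 1 was the lowest of the 6 and the other GFP-positive arrays lay within the range of the GFP-negative arrays. The log2 change was -0.10 (95% interval -0.58 to 0.39; adjusted p = 0.771), which turned to 0.07 after repeated quantile normalization. The remaining probe sets changed by -0.01 and 0.14. The last of these lay at the 1.08th percentile of brightness over all probe sets, so little can be read from it.

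E2f6, the Polycomb-associated repressor, had values of 10.41, 10.18 and 10.10 in GFP-negative and 10.68, 10.57 and 10.70 in GFP-positive arrays. Its groups did not overlap. E2f6 changed by 0.42 ± 0.11 (SE; 95% interval 0.14 to 0.69) and did not pass the threshold (adjusted p = 0.0595). The second probe set read 7.60, 7.55 and 7.92 against 8.15, 7.95 and 8.29, with a log2 change of 0.44 ± 0.14 (SE; adjusted p = 0.0938). Its groups were also apart. The side of the threshold depended on the setting: E2f6 passed in 8 of 17 alternatives, among them repeated quantile normalization (adjusted p = 0.0490) and removal of GFP-negative array 1 (adjusted p = 0.0391).

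E2f7, an atypical repressor of S phase genes, was the member with the lowest change. It read 9.79, 9.64 and 9.62 in GFP-negative arrays and 9.29, 9.55 and 8.99 in GFP-positive arrays. The groups did not overlap, but the GFP-positive arrays were spread more widely. The log2 change was -0.41 ± 0.16 (SE; 95% interval -0.78 to -0.03) with an adjusted p of 0.137.

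E2f8, the partner of E2f7 in repression, read 11.87, 11.90 and 11.97 against 12.01, 12.14 and 12.10. The groups lay close together without overlapping. E2f8 changed by 0.17 (95% interval -0.05 to 0.38; adjusted p = 0.252). The dimmer second probe set varied within the GFP-negative group, at 8.03, 6.79 and 7.32 against 7.93, 7.75 and 7.78, and changed by 0.44 with an interval of -0.28 to 1.17.

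Seen by group separation, 4 of the 8 representatives lay wholly higher in GFP-positive arrays (E2f2, E2f4, E2f6 and E2f8) and 1 wholly lower (E2f7). Over all genes, 45.6% were separated, 28.9% higher and 16.7% lower, so separation without a call is common in these arrays. Of the 16 probe sets, 7 lay wholly higher and 1 wholly lower, where 38.5% of all probe sets were separated, 24.3% higher and 14.2% lower.

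**Figure D2:**
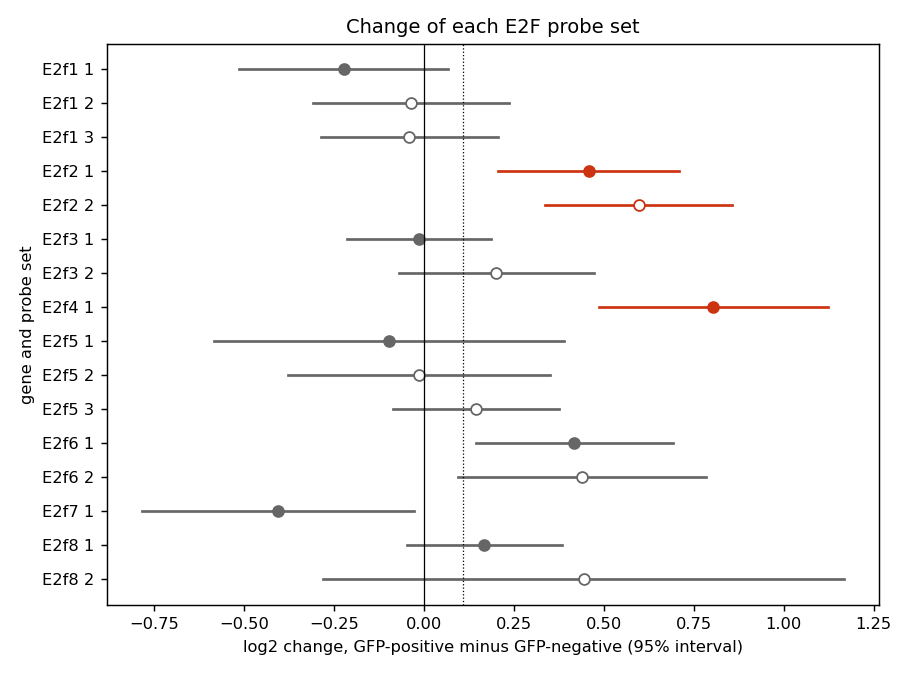
Log2 change (horizontal axis, GFP-positive minus GFP-negative) with its 95% interval from limma for the 16 E2F probe sets, numbered within each gene. Red marks adjusted p under 0.05, filled points the representative probe set, and the dotted line the median over all genes at 0.11. The 3 red probe sets are those of E2f2 and E2f4, and E2f4 is farthest to the right among the representatives.

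Changes were also compared between members. For each of the 28 pairs, the difference between the log2 values of both genes was taken on each array and compared between groups by an exact permutation test (2-sided). With 3 arrays a group the smallest p this test can give is 0.1, and 17 pairs reached it (0.165 after Benjamini-Hochberg adjustment over the 28), so no pair can pass 0.05. The change of E2f4 exceeded that of E2f7 by 1.21, that of E2f1 by 1.03 and that of E2f3 by 0.82, with arrays apart in each case. Its difference from each of 6 of the 7 other members separated the groups, the exception being E2f2, from which it differed by 0.35 with overlap. For E2f2 the difference separated the groups with 5 of the 7 others, and its change exceeded that of E2f7 by 0.86. E2f4 is named here as the member of largest change. The share separated over all pairs of genes was not computed, so these counts have no reference and set no member apart.

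The 3 members of lowest adjusted p were set against all 18040 genes outside the lists, by the root mean square difference of values centred on each gene's mean over the 6 arrays. Nearest to E2f4 were Taf1c, a subunit of the RNA polymerase I factor SL1, at 0.054 on the log2 scale, and Fhit and Rom1 at 0.056 each. Nearest to E2f2 were Tubb2a-ps2 at 0.041, the BMP antagonist Chrd at 0.042 and the ubiquitin ligase scaffold Cul5 at 0.043. Nearest to E2f6 were the ribosome export factor Nmd3 at 0.036, and Rbpjl and the kinase Akt2 at 0.038 each. These are the closest profiles of many over only 6 arrays in 2 groups.

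The partners that E2F proteins need to bind DNA were not called by their representative probe sets. Tfdp1, the main DP partner, changed by 0.04 (95% interval -0.16 to 0.25; adjusted p = 0.755) and Tfdp2 by 0.07 (interval -0.17 to 0.31; adjusted p = 0.664). Of 4 probe sets of Tfdp2, however, 2 were called higher. Limma called 0 of 2 DP genes, next to 18.1% of all genes. At an unadjusted p under 0.05 it also called 0, next to 22% of all genes higher and 15.1% lower.

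None of the 3 pocket proteins was called (limma), next to 18.1% of all genes. At an unadjusted p under 0.05, 1 was higher and 0 lower, next to 22% and 15.1% of all genes. Rb1, the retinoblastoma protein that restrains the activator E2Fs, read 10.90, 11.11 and 11.17 in GFP-negative arrays and 11.37, 11.86 and 11.78 in GFP-positive arrays. Its groups were apart, with a log2 change of 0.61 ± 0.16 (SE) and an adjusted p of 0.0508, just short of the threshold. Among removals of single arrays, Rb1 passed only without GFP-positive array 1 (limma adjusted p = 0.0211, against 0.104 to 0.135 for the others). Without both arrays with immunoglobulin signal its change was 0.82 (adjusted p = 0.0535). A second, dim probe set of Rb1 changed by 0.18 (adjusted p = 0.534). Rbl1 and Rbl2, the partners of E2f4 and E2f5, changed by 0.08 and -0.07 (adjusted p = 0.564 and 0.697).

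The MuvB complex joins E2f4 and a pocket protein to silence cell cycle genes at rest, and joins Mybl2 and Foxm1 to switch on mitotic genes. Of its 7 genes, 1 rose and 0 fell (limma), next to 8.15% and 9.92% of all genes. At an unadjusted p under 0.05 the counts were 1 and 0, next to 22% and 15.1%. The median log2 change was 0.05. The called gene was Mybl2, a classical E2F target, at 8.27, 8.05 and 7.94 against 8.65, 9.09 and 8.94. Its groups were apart, and it rose 1.75-fold (adjusted p = 0.0185). Mybl2 missed the threshold on removal of replicate 2 or 3 of either group (0.0570 to 0.0688) and, at 0.0549, of both arrays with immunoglobulin signal. A second probe set of Mybl2 was not called. The brightest core subunits, Rbbp4 and Lin37, changed by -0.01 and -0.02.

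Polycomb partners of E2f6 were not called: 0 of 10 measured genes passed (limma), next to 18.1% of all genes. At an unadjusted p under 0.05, 0 were higher and 1 lower, Rnf2, next to 22% and 15.1% of all genes. The median was 0.00. L3mbtl2, a chromatin reader of that complex, changed by 0.18 (adjusted p = 0.195) and Yaf2 by -0.02 (adjusted p = 0.945).

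Cyclins E1 and A2, which E2F proteins induce, rose, and cyclins D1 and D2, which act upstream of them, fell. Of 11 G1 cyclin and kinase genes, 2 rose and 3 fell (limma), next to 8.15% and 9.92% of all genes. At an unadjusted p under 0.05 the counts were 3 and 3, next to 22% and 15.1%. The median log2 change was 0.08. Ccne1, which encodes cyclin E1 and is an E2F target, read 10.60, 10.18 and 10.16 against 11.72, 11.45 and 11.39. It rose 2.30-fold with groups far apart (adjusted p = 0.00592), and was called in both of its probe sets and without each of the 6 arrays. Ccna2, the cyclin A2 gene, rose 1.42-fold (log2 12.19 ± 0.08 to 12.69 ± 0.02, SD, n = 3; adjusted p = 0.0154). Removing GFP-negative array 3 or GFP-positive array 2 or 3 took Ccna2 to 0.0523 to 0.0637.

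D cyclins answer to growth factors and activate the kinases that phosphorylate Rb1. Of the 3, Ccnd1 and Ccnd2 fell and Ccnd3 did not pass, with a change in the other direction of 0.30 (95% interval 0.04 to 0.55; limma adjusted p = 0.113) and groups apart. Ccnd1 read 11.29, 11.05 and 11.49 in GFP-negative and 10.51, 9.77 and 10.59 in GFP-positive arrays, with a log2 change of -0.98 ± 0.24 (SE; adjusted p = 0.0451). The groups were apart, but removal of any single array ended the call (adjusted p between 0.0546 and 0.137) and with an offset of 16 before log2 (0.0504). Ccnd2 changed by -0.53 ± 0.13 (SE; adjusted p = 0.0436), and 5 of its 7 probe sets were called lower. On removal of single arrays its representative passed in 1 case, that of GFP-positive array 1 (0.0893 to 0.132 in the others), and missed it with array medians subtracted (0.0519). The third gene that fell was Cdk6, a kinase bound by D cyclins, named after its values were seen, with a change of -0.43 (adjusted p = 0.0275). Without both arrays with immunoglobulin signal, 0 of the 11 genes were called in either direction, with adjusted p = 0.0617 for Ccne1. That count has no reference, since the share of all genes called in this setting is not given.

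Among 7 inhibitors of cyclin-dependent kinases, 0 rose and 1 fell (limma), next to 8.15% and 9.92% of all genes. At an unadjusted p under 0.05 the counts were 1 and 2, next to 22% and 15.1%. The median of 0.17 is the value of Cdkn2b. Cdkn2b, Cdkn2a and Cdkn1c, named after their values were seen, were dim. They lay at the 23.9th, 23.5th and 29.7th percentile of brightness over all probe sets, so little can be read from that median. Cdkn1a, the p21 gene, read 9.21, 9.32 and 9.13 against 8.16, 6.91 and 7.57, so that GFP-positive arrays were lower and more variable. It fell by 1.68 on the log2 scale ± 0.30 (SE; adjusted p = 0.0158). Removing GFP-negative array 2 gave Cdkn1a an adjusted p of 0.0588, removing GFP-negative array 3 gave 0.0528, and removing both arrays with immunoglobulin signal gave 0.0339. Cdkn1b and Cdkn2c, the p27 and p18 genes, changed by -0.18 and 0.49 (adjusted p = 0.348 and 0.0868).

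**Figure D3:**
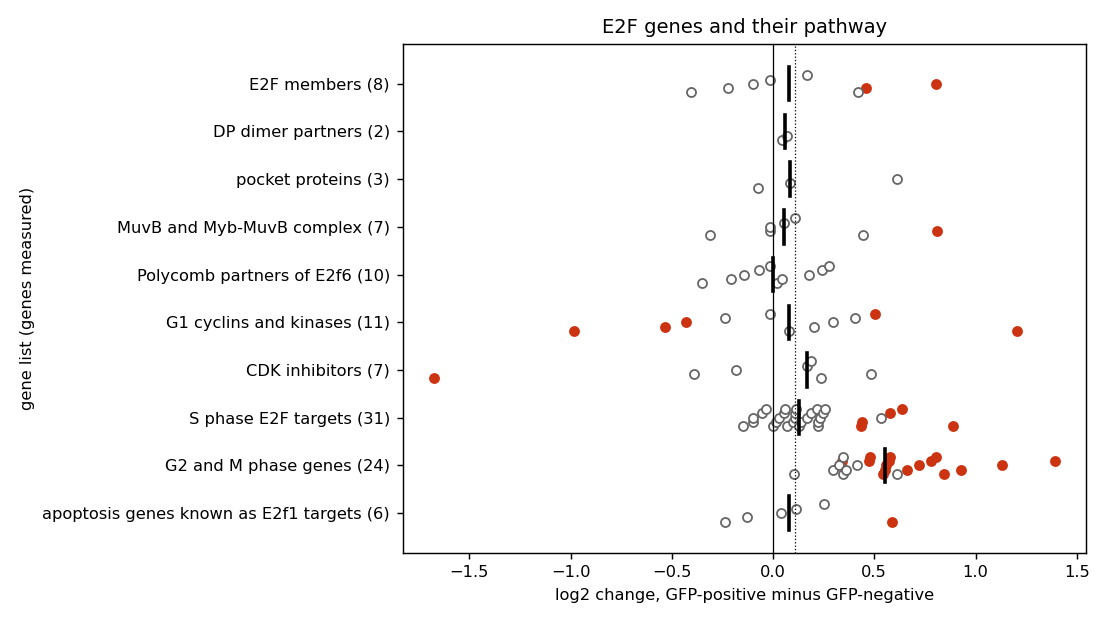
Log2 change (horizontal axis, GFP-positive minus GFP-negative) of each measured gene of the E2F family and 9 pathway lists, with the number of genes in brackets. Red points have an adjusted p under 0.05, black bars are list medians, and the dotted line is the median over all genes at 0.11. The G2 and M phase genes all lie above 0 with a median of 0.55, while the S phase targets centre on 0.13.

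Replication genes that E2F proteins are known to activate were mostly not called. Of 31 measured, 5 rose and 0 fell (limma; 8 and 0 at an unadjusted p under 0.05), where 8.15% of all genes were called higher and 22% were higher at the unadjusted p. Their median log2 change of 0.13 was close to the 0.11 over all genes. Above 0 lay 25 of the 31, where 64.6% of all genes did. The groups lay wholly higher in 14 and wholly lower in 0, where 28.9% and 16.7% of all genes did. The largest rise was that of Orc1, a subunit of the origin recognition complex, at 8.56, 8.39 and 8.21 against 9.48, 9.28 and 9.06. Its groups were apart, and it rose 1.85-fold (adjusted p = 0.0122), a call kept without each array. Its second probe set went the other way, at -0.98 (adjusted p = 0.149), so the 2 probe sets of Orc1 disagree in sign.

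Cdc6, which loads the replicative helicase, rose 1.49-fold (adjusted p = 0.0248), Tyms, the thymidylate synthase, 1.56-fold (adjusted p = 0.0165) and Rrm1, a subunit of ribonucleotide reductase, 1.36-fold (adjusted p = 0.0279). Of 4 probe sets of Tyms 2 were called higher, while the others changed by -0.36 and -0.12 (adjusted p = 0.185 and 0.668). These 3 calls depended on single arrays. The adjusted p of Tyms came to 0.0575 to 0.0659 on removal of replicate 2 or 3 of either group. That of Cdc6 came to 0.0580 to 0.0857 on removal of any array except GFP-positive array 1, and that of Rrm1 to 0.0570 to 0.0977 on removal of any array except GFP-negative array 1. The fifth was Rfc4 of the clamp loader, named after its values were seen, with a change of 0.43 (adjusted p = 0.0391). Without both arrays with immunoglobulin signal, 0 of the 31 were called (adjusted p = 0.0809 for Orc1). No share of all genes called is given for that setting, so this count has no reference.

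The E2F words were found before a start in 9 of 28 of these S phase genes (32.1%), against 2.16% of all genes and 1 of 22 of the G2 and M phase genes (4.55%). The S phase list was drawn up from known E2F targets, so its share is no result of these data. Words were also found in 2 of 7 G1 genes, 1 of 6 kinase inhibitors, 1 of 5 MuvB genes and 1 of 9 Polycomb partners. They were found in 1 of 2 DP genes, 1 of 2 pocket proteins and 0 of 6 apoptosis genes. A window around the first match is printed for 5 of the 9, to set the 2 called genes with a match beside 3 that were not called, from RefSeq GRCm38.p6.
Orc1 (chr4:108579416-108579445, plus strand, called higher): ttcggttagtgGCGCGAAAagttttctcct
Cdc6 (chr11:98908002-98908031, plus strand, called higher): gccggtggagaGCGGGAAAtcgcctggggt
Mcm5 (chr8:75109345-75109374, plus strand, not called): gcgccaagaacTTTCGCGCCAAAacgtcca
Mcm6 (chr1:128359797-128359826, minus strand, not called): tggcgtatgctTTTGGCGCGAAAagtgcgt
Uhrf1 (chr17:56304117-56304146, plus strand, not called): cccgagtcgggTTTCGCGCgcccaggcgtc
In the windows of Mcm5 and Mcm6, words of both strands overlap. Mcm5 and Mcm6, subunits of the helicase, changed by 0.13 and -0.10 (adjusted p = 0.547 and 0.487), and Uhrf1, a maintenance factor of DNA methylation, by -0.04 (adjusted p = 0.826). Of the 9 genes with a match, 2 rose and 7 were not called, where 8.15% of all genes were called higher.

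Genes of G2 and mitosis, which Mybl2, Foxm1 and the MuvB complex control, were mostly higher. Of 24 measured, 16 rose and 0 fell (limma), next to 8.15% and 9.92% of all genes. At an unadjusted p under 0.05 the counts were 22 and 0, next to 22% and 15.1% of all genes. The median log2 change was 0.55, next to 0.11 over all genes. In 23 of the 24 the groups did not overlap, where 45.6% of all genes were separated, 28.9% higher. Plk1, a kinase of mitotic entry, read 8.85, 8.73 and 8.45 against 9.97, 10.16 and 10.08. It rose 2.62-fold (adjusted p = 0.00194), a call kept without each array and without both arrays with immunoglobulin signal (adjusted p = 0.0238).

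Aurka, the spindle kinase Aurora A, rose 2.19-fold (adjusted p = 0.0107) and the centrosome kinase gene Nek2 1.80-fold (adjusted p = 0.0104), and both kept their calls without each array. Of 2 probe sets of Aurka and 4 of Nek2, 1 each was called. Cenpf, a kinetochore gene, rose 1.90-fold (adjusted p = 0.0293), but missed the threshold at 0.0588 to 0.0948 on removal of a GFP-negative array or of GFP-positive array 3. Leaving out 1 array left 7 to 12 of the 24 called higher, and leaving out both arrays with immunoglobulin signal left 1, Plk1. The share of all genes called with fewer arrays is not given, so these counts have no reference.

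**Figure D4:**
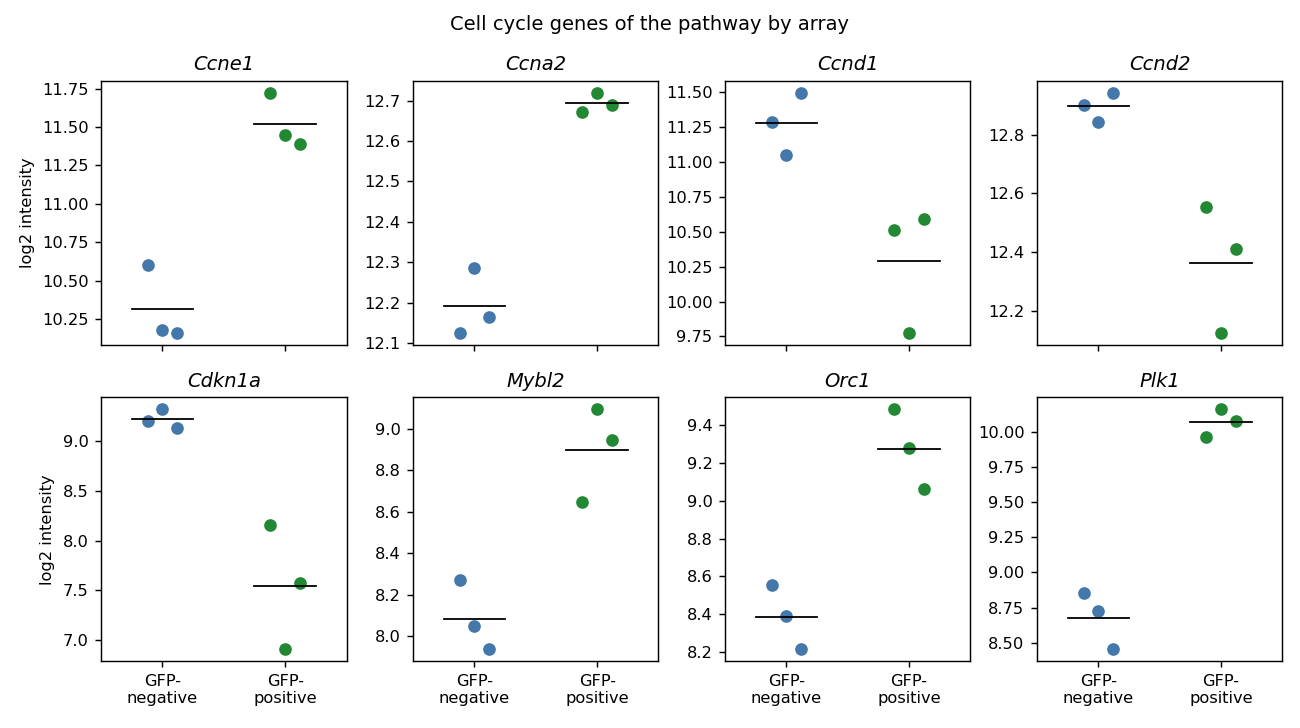
Log2 intensity (vertical axis, own range per panel) of 8 cell cycle genes of the pathway lists on the 3 GFP-negative (blue) and 3 GFP-positive (green) arrays, with lines at the group means. Ccne1, Ccna2, Mybl2, Orc1 and Plk1 lie higher in GFP-positive arrays and Ccnd1, Ccnd2 and Cdkn1a lower, with Cdkn1a at 6.91 to 8.16 against 9.13 to 9.32.

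Apoptosis genes known as E2f1 targets were mostly not called: of 6 measured, 1 rose and 0 fell (limma), next to 8.15% and 9.92% of all genes. At an unadjusted p under 0.05 the counts were 1 and 1, next to 22% and 15.1%. The median was 0.08. The called gene was Bcl2l11, the Bim gene, with a log2 change of 0.59 (adjusted p = 0.0262), called in 3 of its 5 probe sets. On removal of single arrays it passed in 1 case, that of GFP-positive array 3 (0.0553 to 0.0939 in the others), and its adjusted p was 0.176 without both arrays with immunoglobulin signal. Apaf1, of the apoptosome, changed by -0.24 and Casp9 by 0.11 (adjusted p = 0.122 and 0.424).

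Lineage markers moved between the same groups as the E2F genes. The counts below stand next to 8.15% of all genes called higher and 9.92% called lower. Of 8 erythroid markers, 6 rose and 0 fell, and their mean log2 intensity ran from 10.65 to 10.72 in GFP-negative and 11.39 to 11.47 in GFP-positive arrays. Of 9 granulocyte and monocyte markers, 0 rose and 9 fell, and their mean ran from 12.21 to 12.28 and from 10.43 to 10.82. Of 6 mast cell and basophil markers, 1 rose and 4 fell (8.34 to 8.40 against 7.35 to 7.48), and of 5 megakaryocyte markers 1 rose (8.66 to 8.82 against 8.89 to 9.32). B cell markers, of which 1 of 7 fell, ran from 6.38 to 6.98 and 6.44 to 6.78, and those of T and natural killer cells, of which 1 of 7 fell, from 5.97 to 6.07 and 6.01 to 6.25. No marker is at 0, since RMA gives every probe set a positive value. Kit, on which the cells were sorted, changed by -0.25 (adjusted p = 0.138). The part of these markers in the E2F results was not tested.

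The signal difference between 3' and 5' probe sets of beta-actin, a sign of RNA quality, ran from 0.54 to 0.63 in GFP-negative and 0.57 to 0.69 in GFP-positive arrays on the log2 scale. The ranges overlap.

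**Figure D5:**
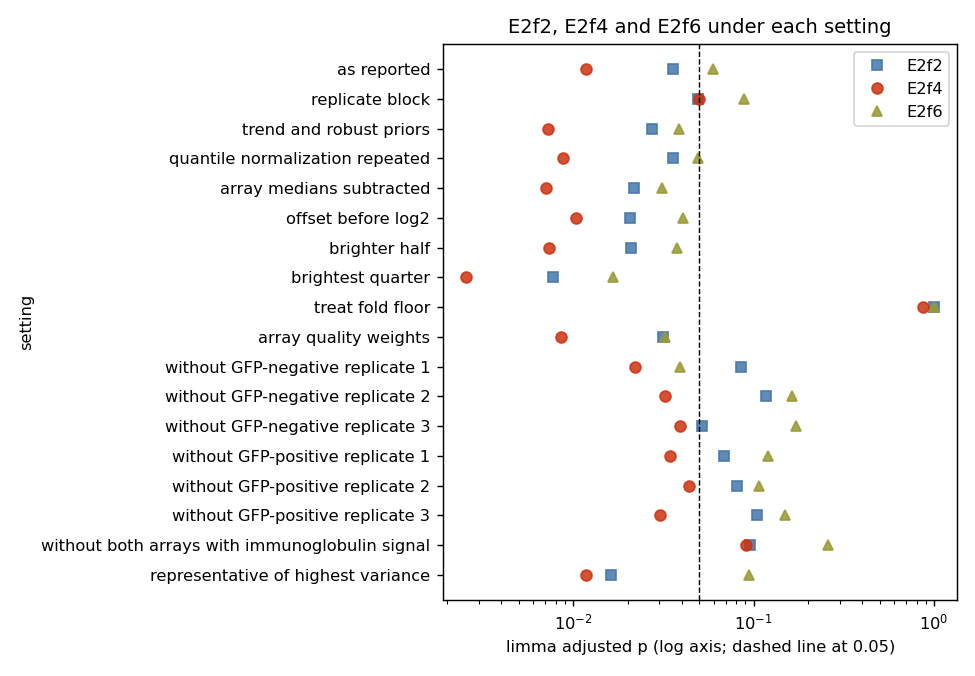
Limma adjusted p (horizontal log axis) of E2f2, E2f4 and E2f6 as reported and under 17 alternatives, with a dashed line at 0.05. E2f4 stays left of the line in 15 of 17 alternatives, E2f2 in 9 and E2f6 in 8, and none of them passes the fold floor of 1.5 or the removal of both arrays with immunoglobulin signal.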

How the data were processed

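RNA of 6 samples was measured on Affymetrix arrays. Per the labels' protocols, amplification used the NuGEN Ovation kit before biotin labelling. The authors deposited 1 linear intensity per probe set and array; RMA is named in the submitters' processing notes, without its version or settings.

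Values were taken to log2 without an offset. The 64 control probe sets among 45101 were dropped. GEO's platform annotation gives 1 symbol to 34945 of the rest, several to 932 and none to 9160, and genes were named from the first kind, of which 34741 matched RefSeq (GRCm38.p6) by gene ID. Of several probe sets of a gene, the one with the highest mean stood for it. The test was limma 3.58.1 under R 4.3.3 (eBayes after lmFit, 2-sided, no covariate, 6.38 total degrees of freedom), with Benjamini-Hochberg adjustment over 45037 probe sets and a threshold of 0.05. The fit was checked on simulated data whose planted changes were larger than that of any member, so the check does not cover changes of their size. Changes are GFP-positive minus GFP-negative. Tables were made in Python 3.11.15 with pandas 2.3.3.

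The members, lists and tests were chosen with earlier results of these data known. Named genes were all members, Hes1, and per list the 4 called genes of largest change (every gene of lists of up to 3, and the 2 brightest where fewer than 2 were called). Others are said to be named after their values were seen, except genes shown for a promoter match, markers and those counted at an unadjusted p. Alternatives were a replicate block, trend with robust priors, repeated quantile normalization, array medians subtracted, an offset of 16, tests on the brighter 22519 or brightest 11260 probe sets alone, a test against a fold of 1.5, array weights, the probe set of highest variance, and leaving out arrays.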

Additional observations from a re-analysis of the deposited data

How the results depend on the processing

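Leaving out 1 array moved the log2 changes to between 0.41 and 0.53 for E2f2, 0.69 and 0.88 for E2f4, 0.35 and 0.51 for E2f6, -0.31 and -0.15 for E2f1, -0.54 and -0.26 for E2f7, 0.14 and 0.20 for E2f8, -0.037 and 0.0033 for E2f3, -0.22 and 0.12 for E2f5, and 1.19 and 1.33 for Hes1. It left 1 to 2 members and 1 to 3 member probe sets called higher, with 0 called lower. Of the lists, 0 to 1 genes were called higher for pocket proteins, MuvB and apoptosis, 1 to 2 for G1 cyclins and kinases (0 to 2 lower), 1 to 3 for S phase and 7 to 12 for G2 and M phase, and 0 to 1 lower for the kinase inhibitors. With fewer arrays the test has fewer degrees of freedom. Since the share of all genes called is given for the main setting alone, counts under the alternatives have no reference. With the fold floor of 1.5, E2f2 (0.46) and E2f4 (0.80) lost their calls, and without both arrays with immunoglobulin signal E2f2 (0.54) and E2f4 (0.85) did. In either case 0 members, 0 member probe sets and 0 MuvB, G1, S phase and apoptosis genes were called, and 1 G2 and M phase gene; the fold floor also left 0 inhibitors called. E2f3 turned positive with array medians subtracted (0.063) and by its probe set of highest variance (0.20), and E2f5 with repeated quantile normalization (0.070) and without both arrays (0.10). E2f6 passed with trend and robust priors, repeated quantile normalization, the 22519 and the 11260 brightest probe sets (0.42 each), array medians subtracted (0.50), an offset (0.41) and array weights (0.45). Repeated quantile normalization called 5 member probe sets higher, and trend with robust priors 8 S phase genes. The pocket protein count was 1 with the replicate block, trend, medians subtracted, offset, both brightness filters and weights. Among other counts, 1 Polycomb gene was higher with trend and 1 lower among the 11260 brightest, 1 kinase inhibitor was higher with medians subtracted and among the 11260 brightest (0 lower there), 0 MuvB genes were called among the 11260 brightest, 1 apoptosis gene was lower with trend, the offset and the 11260 brightest, and 0 were higher by highest variance. Cdkn1a and Mybl2 were not bright enough for the 11260 brightest, so they were left out of that setting and did not lose a call in it. The cause of the other shifts was not tested. Same-numbered arrays correlated at 0.023, 0.055 and 0.019 in their deviations from the group means, and arrays of different number at -0.043 to 0.016. These values do not settle whether arrays pair. The labels do not say whether same-numbered arrays share an animal, so they were treated as unpaired. With the replicate block, E2f2 and E2f4 stayed past the threshold by their representatives (limma adjusted p = 0.0492 and 0.0498), the second probe set of E2f2 did not (0.0593), which left 2 member probe sets called, and 1 S phase gene was higher, 1 G1 gene lower and 0 MuvB genes called.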
